A study of Mus musculus with 5 samples.

Results

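The genes described are those that encode the subunits of the proteasome, measured in mouse aorta. Members were all probe sets (groups of probes that read 1 transcript) whose single annotated gene symbol starts with Psma, Psmb, Psmc or Psmd and a number, without the inducible subunit genes Psmb8, Psmb9 and Psmb10. The rule found 36 of the 12393 genes with a singly annotated probe set, through 65 of the 22690 probe sets in the deposited table. Of the 65, 27 probe sets of 15 genes belonged to the core particle (Psma and Psmb), and 38 probe sets of 21 symbols to the regulatory particle (Psmc and Psmd). One symbol that the rule takes, Psmc3ip, names a cofactor of meiotic recombination and not a subunit, and is described apart.

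Aortas came from male mice of the strain named BKS.Cg-m +/+ Lepr db/J in the labels, aged 16 to 20 weeks and fed regular chow. The test group was homozygous for db, a mutation of the leptin receptor gene Lepr (db/db, 3 arrays, replicates 1, 2 and 3), and the control group was heterozygous (db/+, 2 arrays, replicates 2 and 3), so both groups carried at least 1 db allele. The mutation is in the germ line, so every cell of a db/db mouse lacks the signalling form of the receptor, and these mice become obese and diabetic. Each array was hybridised with RNA from a pool of 6 aortas that had been freed of adventitia and periaortic fat, per the series' design text. The spread between arrays is therefore that between pools, and 5 arrays give wide intervals for a single probe set.

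The proteasome degrades proteins that carry ubiquitin chains. Its core particle is a barrel of stacked rings, with outer alpha rings that control entry and inner beta rings that hold the catalytic sites. The regulatory particle caps the barrel: a base of ATPases unfolds the substrate and pushes it into the core, and a lid removes the ubiquitin. Transcription of subunit genes can be raised together by the factor encoded by Nfe2l1, which binds antioxidant response elements in their promoters, and the NF-Y complex binds CCAAT boxes found in many housekeeping promoters.

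Promoter stretches are shown for the members whose RefSeq promoter window (250 bases before to 50 after the start site, mouse assembly GRCm38.p6) held the core of the antioxidant response element, TGACNNNGC, on either strand. They are shown because this element is a known shared input of the family. They are written 5′ to 3′ on the gene's strand, with the element in capitals, which reads in reverse complement in Psmc6 and Psmd12. The last stretch, of Psmb3, has its CCAAT boxes in capitals instead.
Psmb6, chr11:70525257-70525356, plus strand: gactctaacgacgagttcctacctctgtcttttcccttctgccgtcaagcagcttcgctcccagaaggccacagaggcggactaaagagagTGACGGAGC
Psmb5, chr14:54617996-54618095, minus strand: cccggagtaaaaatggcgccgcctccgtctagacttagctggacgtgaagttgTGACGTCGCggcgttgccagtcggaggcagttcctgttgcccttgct
Psmd9, chr5:123228090-123228189, plus strand: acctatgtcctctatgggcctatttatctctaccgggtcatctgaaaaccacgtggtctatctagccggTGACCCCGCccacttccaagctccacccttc
Psmc6, chr14:45329574-45329673, plus strand: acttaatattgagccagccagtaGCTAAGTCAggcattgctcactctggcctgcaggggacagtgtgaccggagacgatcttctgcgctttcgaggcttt
Psmd12, chr11:107479278-107479377, plus strand: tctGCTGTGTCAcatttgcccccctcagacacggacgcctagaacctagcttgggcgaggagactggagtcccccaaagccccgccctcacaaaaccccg
Psmb3, chr11:97703334-97703433, plus strand: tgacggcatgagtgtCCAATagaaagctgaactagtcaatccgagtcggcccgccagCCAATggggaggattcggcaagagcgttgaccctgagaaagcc

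In Psmb6, Psmb5 and Psmd9 the element's first base lay 9, 47 and 31 bases before the start site, and in Psmc6 and Psmd12 its left end on the gene's strand lay 227 and 247 bases before it. A window was found for 29 of the 36 member genes. The element stood in 5 of these 29 (17.2%), against 13.99% of the 27025 genes in the promoter table. CCAAT, on either strand, stood in 12 of 29 (41.4%), against 41.1% of all genes, and no CCAAT overlapped the element in the members' windows. Psmc3ip, which is not a subunit, is among the 29 and among the 12 with CCAAT. These shares describe letters in a window and do not show binding.

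The arrays carried strong signals of the labelled tissue. Taking the brightest probe set of each gene, the summed signal of 8 smooth muscle markers, Myh11 and Acta2 among them, was between 23528 and 31523 on the 5 arrays. Other cell types were also read: Ucp1, the brown fat uncoupling protein, gave 2503 and 2665 in db/+ and between 2136 and 4334.5 in db/db. The sum of 5 brown adipocyte markers was 6757 and 7820.5 in db/+ and between 5240 and 10712 in db/db. Of these, Elovl3 lay higher in all db/db arrays (log2 change 1.16), while Ucp1, Cidea, Cox7a1 and Cox8b overlapped. That of 5 white adipocyte markers was 7984 and 7260 in db/+ and between 5026 and 8638 in db/db. Fat was thus read although the design text has it removed. The sum of 6 macrophage markers lay between 1603 and 1861 in db/db and was 2717 and 3374 in db/+. That of 6 endothelial markers was 860 to 1133 in db/db and 1350 and 1467 in db/+. Its members parted: Pecam1, Vwf, Tek and Emcn lay lower in all db/db arrays. The genotypes overlapped at Kdr (log2 change 0.039) and at both probe sets of Cdh5 (0.20 and −0.057). Of 6 hepatocyte markers, Fgb gave at most 3.4 on any array. The sum of the 6 was 304 to 574 in db/db and 1221 and 1234 in db/+. Of its 7 probe sets above the filter, 2, 1 each of Alb and Serpina1b, passed the test below as lower in db/db. Of the 7, 6 had negative log2 changes and 1, of Apoa1, went the other way. Apoa1 gave 41.3 and 27.1 in db/+ and 98.8, 68.1 and 51.9 in db/db. None of the 8 macrophage, 7 endothelial or 13 smooth muscle probe sets above the filter passed that test. Of 8 white adipocyte probe sets above the filter, 1, of Lep, passed as lower in db/db (log2 change −2.96, limma adjusted p = 0.0073). Of these 8, 7 had negative log2 changes and 1 a positive one. Cardiac markers were highest in db/db replicate 2 (summed signal 3321, against 450 to 1083 on the other arrays). Since every array reads a whole tissue, fewer cells of a type and less RNA per cell cannot be told apart, and the part of these other cells in the subunit signals was not tested. Across probe sets, log2 values of any pair of arrays correlated with r between 0.952 and 0.977.

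Of the 65 member probe sets, 49 lay above the filter on low signals (a mean corresponding to a signal of 39.5), and they represented 34 genes: 20 probe sets of 14 core genes and 29 of 20 regulatory genes. No subunit gene passed the test of db/db against db/+. With limma at an adjusted p under 0.05, 0 of 20 core and 0 of 29 regulatory probe sets were called, where 0.081% of the 13575 probe sets tested were called, all 11 of them lower in db/db. At an unadjusted p under 0.05 there were likewise 0 of 49 member probe sets, against 8.13% of all tested. Limma adjusted p-values of members ran from 0.66 (Psmb6) to 0.997 (Psmb3).

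A p that misses the threshold does not show equal levels, so the 95% intervals of the log2 changes (db/db minus db/+, on the log2(signal + 16) scale) set the bounds. On this scale, every one of the 49 intervals lay within a 2-fold change in either direction, between −0.73 and 0.96. So did 93.2% of the intervals over all probe sets tested. The added 16 compresses changes of dim probe sets and so narrows their intervals. Within a 1.5-fold change lay 36 of the 49 (73.5%), against 51.3% of all. Log2 changes themselves ran from −0.34 (Psmb6) to 0.33 (Psma7 and Psmd11), and the median size of a change was 0.12 in members and 0.15 over all probe sets tested. Mean signals of the genotypes differed by less than 20% at 46 of the 49 probe sets. This share was not taken over all probe sets tested, and none of these comparisons was matched for signal. The median log2 change was −0.0075 over the core particle and −0.030 over the regulatory particle, beside 0.017 over all probe sets tested.

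**Figure D1:**
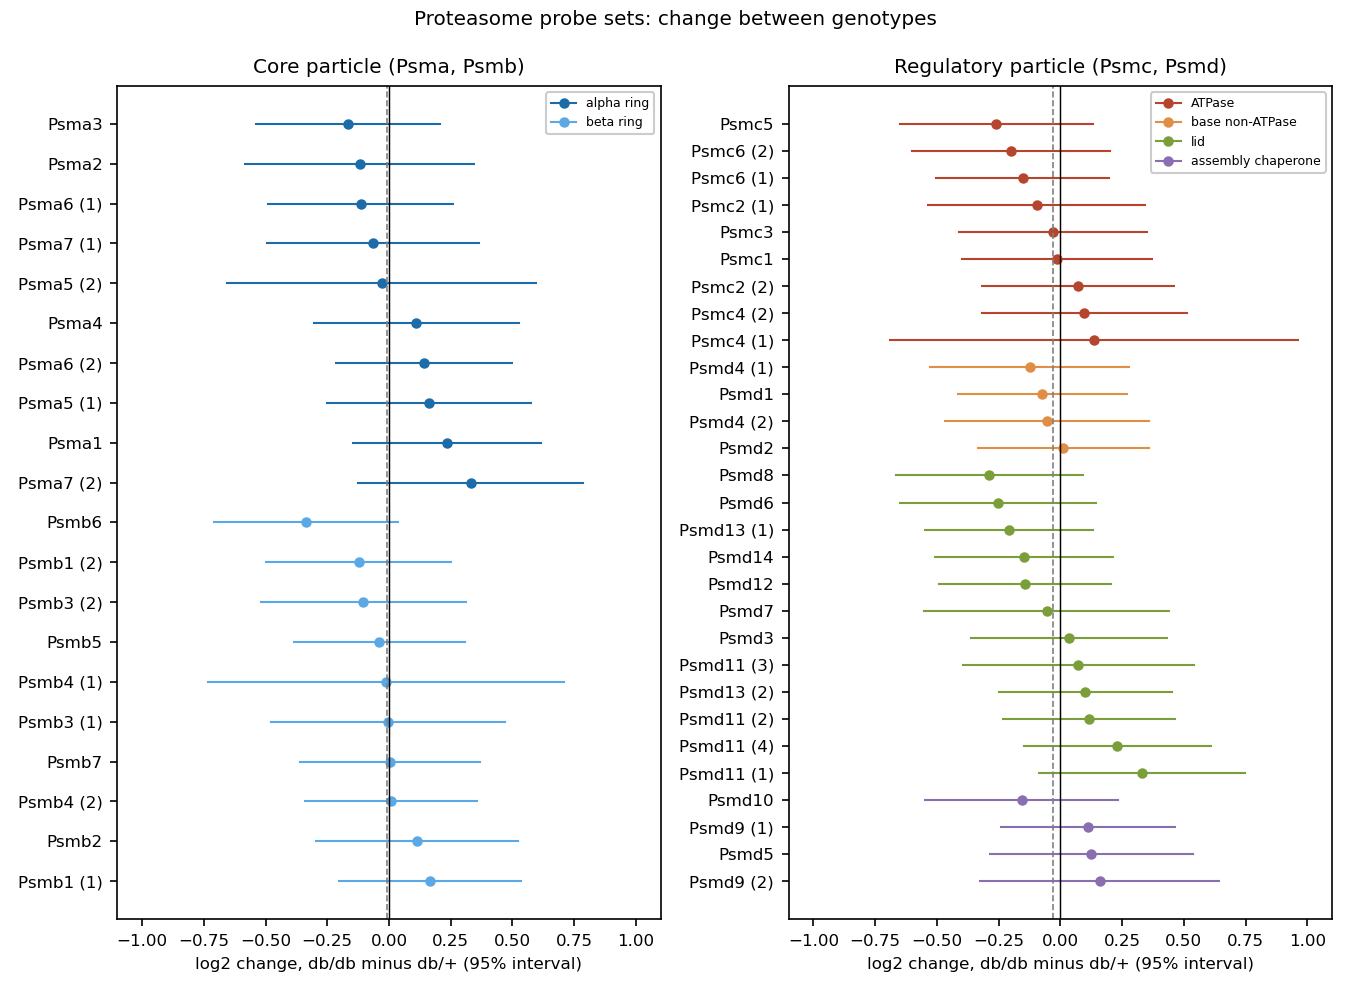
Log2 change between genotypes (db/db minus db/+, x axis) with its 95% interval for the 49 member probe sets above the filter, core particle left and regulatory particle right, coloured by role. Numbers after a symbol tell the probe sets of a gene apart in order of their identifiers, and the dashed line is the particle's median. All intervals cross 0 and lie between −0.73 and 0.96.

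The beta ring held the member with the smallest p. Psmb6, which encodes the catalytic subunit that cuts after acidic residues, gave 294 and 266 in db/+ replicates 2 and 3 and 232, 193 and 232 in db/db replicates 1, 2 and 3. All 3 db/db arrays lay below both db/+ arrays, with db/db replicate 2 lowest. The means were 219 ± 22.1 (SD, n = 3) and 280 ± 19.9 (SD, n = 2), a log2 change of −0.34 (SE 0.16, 95% interval −0.71 to 0.036, limma adjusted p = 0.66). Its value ranged from −0.40 to −0.25 over the alternative settings.

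The other constitutive catalytic subunits had changes near 0. Psmb5, the chymotrypsin-like subunit, gave 598 and 676 in db/+ and 621, 612 and 623 in db/db, a difference of −0.039 (log2, 95% interval −0.39 to 0.31). The db/db arrays lay between the db/+ arrays. Psmb7, the trypsin-like subunit, gave 1514 and 1717 in db/+ and 1713, 1487 and 1663 in db/db, a difference of 0.0053 (log2, 95% interval −0.36 to 0.37), and the genotypes overlapped. The interval of Psmb6 overlapped those of Psmb5 and Psmb7, and the difference between these subunits was not tested. The 3 inducible subunits that can replace them, which the membership rule leaves out, had log2 changes of 0.21 (Psmb8), 0.19 (Psmb9) and −0.076 (Psmb10), with adjusted p from 0.84 to 0.94.

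Non-catalytic beta subunits build the ring without cutting. Psmb1 was read by a pair of probe sets above the filter that had opposite signs. The brighter gave 676 and 714 in db/+ and 720, 576 and 623 in db/db (log2 change −0.12, SE 0.16), and the dimmer gave 75.7 and 61.8 against 77.7, 85.3 and 73.6 (log2 change 0.17, SE 0.16). The genotypes overlapped at both. Psmb2 had a log2 change of 0.11, Psmb3 of −0.0045 and −0.10, and Psmb4 of 0.0090 and −0.011. The second Psmb4 probe set, of a type that can read related transcripts, was among the most variable members, with 278 and 134 in db/+ and 137, 255 and 204 in db/db, while the first stayed between 744 and 832 on all arrays.

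In the alpha ring, 5 probe sets had positive and 5 negative log2 changes, with a median of 0.040. Psma7 had the highest value in the core particle. It gave 184 and 241 in db/+ and 291, 219 and 307 in db/db, means of 213 ± 40.02 (SD, n = 2) and 272 ± 47.2 (SD, n = 3). Its log2 change was 0.33 (SE 0.20, 95% interval −0.12 to 0.79, adjusted p = 0.75). Replicate 2 was the lower array in each genotype, and the genotypes overlapped. Its other probe set gave 249 and 236 in db/+ and 228, 191 and 282 in db/db, a difference of −0.063 (log2), so its probe sets had opposite signs. The value of 0.33 depended on single arrays: it was 0.15 without db/+ replicate 2 and 0.51 without db/+ replicate 3 (limma adjusted p = 0.999 and 0.998). Without db/db replicate 2 it was 0.47, with an unadjusted p under 0.05 (limma adjusted p = 0.47).

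Psma1 gave 263 and 222 in db/+ and 300, 256 and 308 in db/db (log2 change 0.23, SE 0.17, adjusted p = 0.80), with db/db replicate 2 between the db/+ arrays. Psma3 gave 931 and 1015 in db/+ and 804, 974 and 827 in db/db (−0.16, SE 0.16), and Psma2 gave 649 and 818 against 772, 538 and 724 (−0.12, SE 0.20). In both, at least 1 db/db array lay between the db/+ arrays. The value of Psma2 turned to 0.044 without db/+ replicate 3 and to 0.036 without db/db replicate 2.

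Psma6 shows how far probe sets of 1 gene can part. One gave 648 and 612 in db/+ and 509, 609 and 630 in db/db (log2 change −0.11, SE 0.16). The other, of the type that can read related transcripts, gave 747 and 755 in db/+ and 764, 899 and 834 in db/db (0.14, SE 0.16), and there every db/db array lay above the db/+ arrays. Psma5 had log2 changes of 0.16 (268 and 307 in db/+ against 360, 268 and 350 in db/db) and −0.030 (417 and 273 against 405, 228 and 389). Psma4 had 0.11. Psma8, the alpha subunit of the testis, was below the filter, with 10.4 and 14.6 in db/+ and 8.3, 2.7 and 9.3 in db/db.

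The ATPases of the base form the ring that unfolds substrates. Psmc5 had the lowest value among them, with 358 and 311 in db/+ and 260, 319 and 253 in db/db. The means were 277 ± 36.2 (n = 3) and 334 ± 33.3 (n = 2), a log2 change of −0.26 (SE 0.17, 95% interval −0.65 to 0.13, adjusted p = 0.78). Replicate 2 of db/db lay between the db/+ arrays. Psmc6 was lower in all db/db arrays at both of its probe sets above the filter: 389 and 402 in db/+ against 369, 285 and 379 in db/db (−0.20, SE 0.18), and 130 and 115 against 110, 112 and 103 (−0.15, SE 0.15). The dimmer one is of a type that can read related transcripts. Psmc1, Psmc2 and Psmc3 had log2 changes between −0.096 and 0.070, and Psmc4 had 0.096 and 0.14.

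The most variable member was the second of these Psmc4 values. It came from signals of 136 and 64.7 in db/+ and 133, 59.7 and 145 in db/db, a within-genotype SD of 0.61 on the log2 scale. The other Psmc4 probe set gave 279 and 319 in db/+ and 303, 384 and 281 in db/db. The arrays lowest at the variable probe set, db/+ replicate 3 and db/db replicate 2, were the highest at the other. Within-genotype SDs of the 49 members otherwise went down to 0.033 (Psmd13), with a median of 0.16, against 0.19 over all probe sets tested, and 3 members exceeded 0.4 (Psma5, Psmb4 and Psmc4, at 1 probe set each).

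The base also holds subunits that are no ATPases. The scaffold subunits Psmd1 and Psmd2 were among the least variable members. Psmd1 gave 400 and 403 in db/+ and 365, 399 and 380 in db/db (log2 change −0.072, 95% interval −0.41 to 0.27), and Psmd2 gave 672 and 703 against 675, 734 and 673 (0.012, 95% interval −0.33 to 0.36). Psmd4, a receptor for ubiquitin chains, had −0.12 and −0.053.

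Lid subunits gave both the lowest and the highest log2 change of the regulatory particle. Psmd8 gave 845 and 832 in db/+ and 625, 652 and 785 in db/db, means of 687 ± 85.7 (n = 3) and 838 ± 9.12 (n = 2). Every db/db array lay below the db/+ arrays, with replicate 3 the closest, and the log2 change was −0.29 (SE 0.17, 95% interval −0.67 to 0.090, adjusted p = 0.73). Psmd6 gave 476 and 518 in db/+ and 469, 353 and 430 in db/db (−0.25, SE 0.17, adjusted p = 0.79), again without overlap. Psmd13 gave 240 and 254 in db/+ and 208, 212 and 214 in db/db (−0.21, SE 0.15, adjusted p = 0.80), with the smallest within-genotype SD of all members. But its second probe set, of the type that can read related transcripts, gave 195 and 175 against 197, 210 and 192 (0.10).

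Psmd11, a lid subunit that also touches the core, had 4 probe sets above the filter and a positive value at each. One gave 174 and 119 in db/+ and 184, 188 and 185 in db/db. Its log2 change of 0.33 (SE 0.18, 95% interval −0.085 to 0.75, adjusted p = 0.71) was 0.57 without db/+ replicate 2 and 0.088 without db/+ replicate 3. A further one gave 332 and 312 against 353, 437 and 357 (0.23, SE 0.17), and at both of these the genotypes did not overlap. The brightest, of a type that can read related transcripts, gave 1010 and 924 against 1002, 1090 and 1057 (0.12, SE 0.15), and the last had 0.072. Psmd14, the deubiquitinase of the lid, gave 513 and 544 in db/+ and 502, 498 and 430 in db/db (−0.15, SE 0.16), and Psmd12 gave 318 and 342 against 307, 280 and 306 (−0.14, SE 0.15). In both, the db/db arrays lay below the db/+ arrays. Psmd3 and Psmd7 had log2 changes of 0.034 and −0.056.

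**Figure D2:**
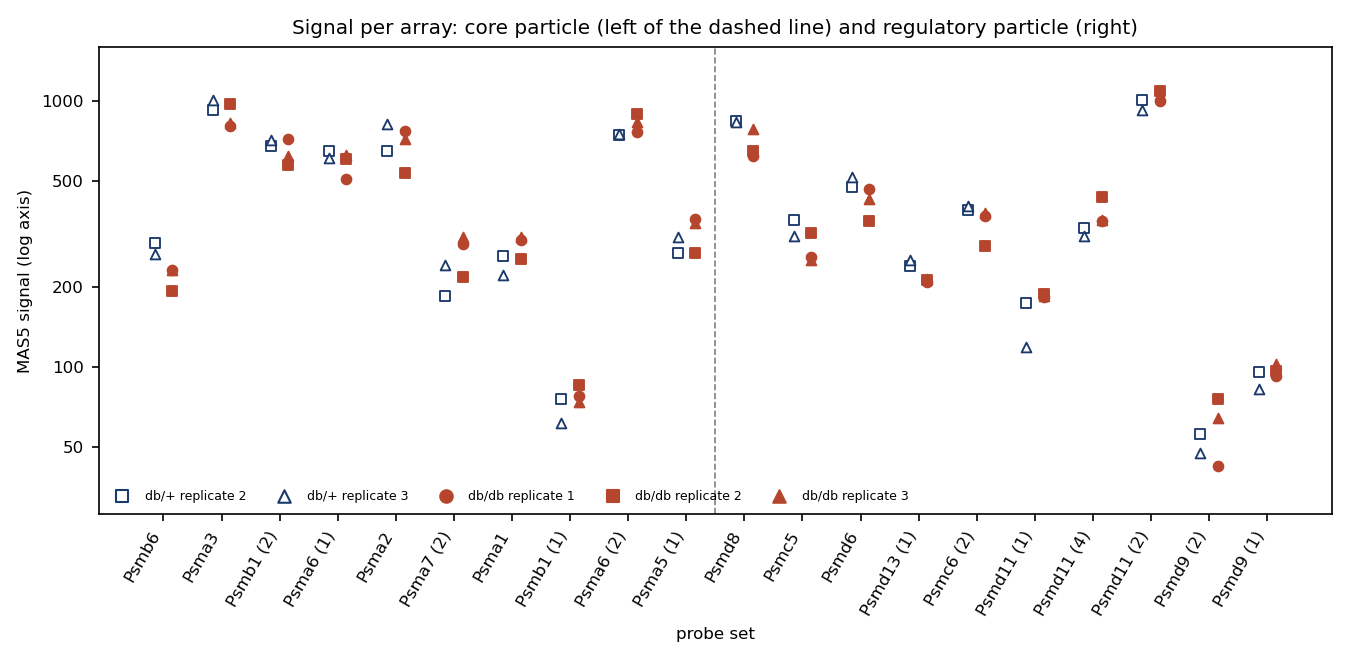
MAS5 signal on each array (y axis, log scale) for the 20 member probe sets with the smallest p, 5 lower and 5 higher in db/db for each particle, open symbols for db/+ and filled for db/db, with the symbol shape giving the replicate. Genotypes do not overlap at Psmb6, Psma6 (2), Psmd8, Psmd6, Psmd13 (1), Psmc6 (2), Psmd11 (1) and Psmd11 (4), and they overlap at the others.

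Assembly chaperones that carry a Psmd symbol bind the base only while it is built. Psmd9 gave 95.4 and 82.7 in db/+ and 92.8, 96.7 and 103 in db/db (log2 change 0.11, SE 0.16), and 56.2 and 47.3 against 42.4, 75.9 and 64.1 at its other probe set (0.16, SE 0.21). The genotypes overlapped at each. Psmd5 had 0.13 and Psmd10, also known as gankyrin, −0.16.

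The db/db and db/+ arrays did not overlap at 25% of all probe sets tested, and they did not at 12 of the 49 members. The db/db arrays lay wholly below the db/+ arrays at 8 of 29 regulatory probe sets (27.6%), where 11.9% of all probe sets tested did so, and wholly above at 2 (6.9%), where 13.1% did. The 8 were Psmc6 (both), Psmd1, Psmd6, Psmd8, Psmd12, Psmd13 and Psmd14, with log2 changes from −0.29 to −0.072, none past the test. In the core particle the counts were 1 of 20 below (Psmb6, 5%) and 1 above (Psma6, 5%), but this count below was 7 (35%) without db/+ replicate 2 and 4 (20%) without db/+ replicate 3, and 2 or 3 without a db/db array. The count of 8 was 7 with quantile normalization, which lost Psmd1, and 6 with each array centred on its median, which lost Psmd1 and 1 probe set of Psmc6. With 1 array left out the regulatory count was between 8 and 10 (34.5% without db/+ replicate 2, beside 35% of the core particle), where 17.5% to 23.8% of all probe sets tested lay below. Probe sets of a gene share their transcript, and the regulatory count was seen in the data and has no test of its own.

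The median over the core particle did not part the arrays by genotype. Taking each probe set's deviation from its own mean over the 5 arrays, the core particle's median deviation was −0.032 and 0.015 in db/+ replicates 2 and 3 and 0.033, −0.13 and 0.065 in db/db replicates 1, 2 and 3. Replicate 2 of db/db was the lowest array and replicate 3 the highest, with db/+ between them. Replicate 2 of db/db was the lowest of the 5 arrays at 10 of 20 core and 10 of 29 regulatory probe sets, 40.8% of the members, against 22.7% of all probe sets tested. Regulatory medians were closer together, at 0.020, 0.034, −0.012, −0.015 and −0.019 in the same order, so that both db/+ arrays lay above the 3 db/db arrays by less than the interquartile range of the members on any array. For db/db replicate 1, the array that correlated least with a db/+ array over all probe sets (r = 0.952), the median size of a deviation was 0.088 in members and 0.16 over all probe sets.

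**Figure D3:**
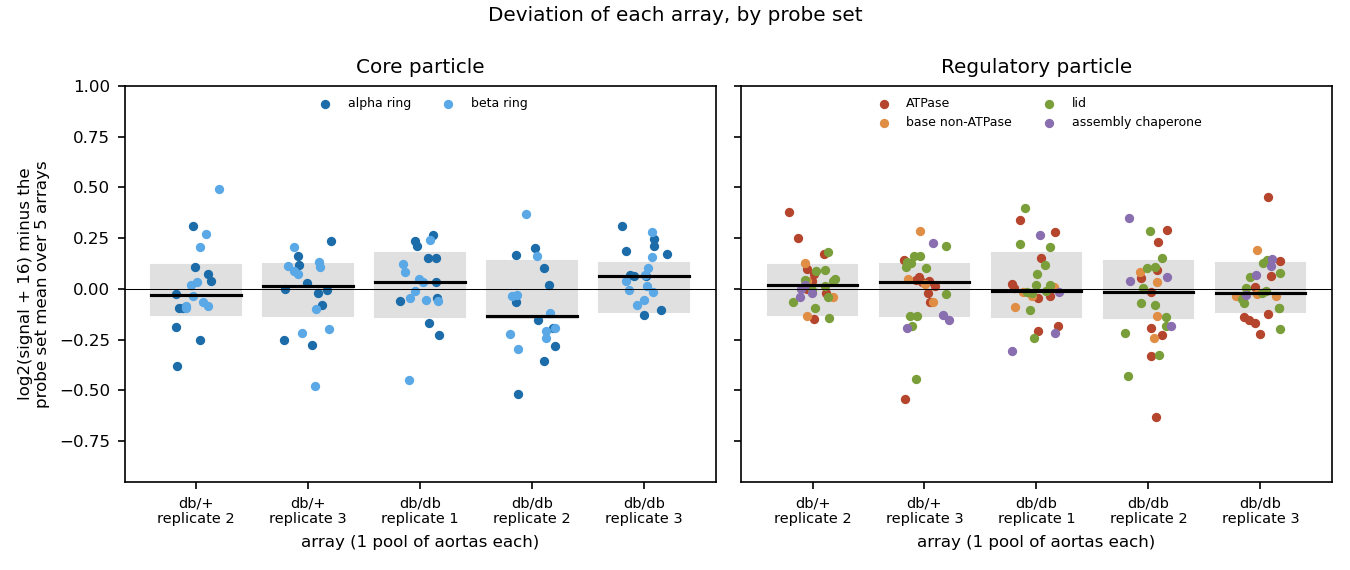
Deviation of each array from the probe set's mean over the 5 arrays (y axis, log2 scale) for the member probe sets, coloured by role, core particle left and regulatory particle right. Black bars are the medians and grey boxes the interquartile range of all 13575 probe sets tested. The core median is lowest in db/db replicate 2 (−0.13), and the regulatory medians are 0.020 and 0.034 in db/+ and −0.019 to −0.012 in db/db.

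Single arrays also set the size of other members' values. Without db/db replicate 2 the log2 change was −0.076 for the brighter Psmc6 probe set and −0.14 for Psmd6. It was −0.16 for Psmc5 without db/+ replicate 2, and 0.12 for Psma1 without db/+ replicate 3.

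Different probe sets gave a further check of how far single values can be read. Of 13 member genes with several probe sets above the filter, 7 had probe sets of opposite sign, and the gap between the log2 changes of 1 gene ran up to 0.39 (Psma7), larger than any member's change. With the brightest probe set of each gene, 7 of 14 core and 13 of 20 regulatory genes had a negative log2 change, with medians of −0.012 and −0.064.

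Below the filter lay 16 member probe sets of 12 genes, with signals between 0.1 and 52. They were further probe sets of Psma1, Psma5, Psma6, Psmb1, Psmc1, Psmc6, Psmd4, Psmd6, Psmd7 and Psmd11, which brighter probe sets also read, and the only ones of Psma8 and Psmc3ip. Psmc3ip gave 12.9 and 34.6 in db/+ and 47.7, 41.1 and 41.8 in db/db, so that its arrays did not overlap. In a fit without the filter its log2 change was 0.64 (SE 0.25, limma adjusted p = 0.68), the single member with an unadjusted p under 0.05 there.

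The promoter elements were set beside the changes as a description. The 5 genes with the antioxidant response element had 7 probe sets above the filter, with log2 changes from −0.34 to 0.16 and a median of −0.14, 5 of them negative. Psmc6 and Psmd9 each gave 2 of the 7, both negative for Psmc6 and both positive for Psmd9. The 35 probe sets of genes whose window lacked the element had a median of −0.011, 19 of them negative. Whether the changes go with the element was not tested. Psmb6, whose element sits next to the start site, and Psmb5, which has one 47 bases before it, had −0.34 and −0.039. Probe sets of genes with CCAAT had a median of −0.080 (16 probe sets) and those without 0.011 (26 probe sets). Of the genes for the factors, Nfe2l1 gave 826 and 975 in db/+ and 848, 928 and 918 in db/db (log2 change −0.00055, SE 0.16), and Nfe2l2 had −0.016. The NF-Y subunit genes had log2 changes of 0.20 and 0.29 (Nfya), 0.076 (Nfyb) and 0.16 (Nfyc), with limma adjusted p from 0.85 to 0.96, and the genotypes overlapped at each.

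Among other genes of the ubiquitin-proteasome pathway, 33 genes were read by 53 probe sets above the filter. Of the 53, 0 passed with limma, where 0.081% of all tested did. At an unadjusted p under 0.05 there was 1, against 8.13% of all tested. Their median log2 change was 0.033, with 29 positive and 24 negative. The db/db arrays lay wholly above the db/+ arrays at 7 of the 53 and wholly below at 7. Over all probe sets tested, 13.1% lay above and 11.9% below. The probe set at an unadjusted p under 0.05 was of Psme4, the large activator that can cap the core in place of the regulatory particle. It gave 365 and 348 in db/+ and 243, 279 and 292 in db/db, means of 271 ± 25.3 (n = 3) and 356 ± 12.1 (n = 2). All db/db arrays lay below the db/+ arrays, and the log2 change was −0.38 (SE 0.16, 95% interval −0.74 to −0.016, limma adjusted p = 0.60), while its other probe sets had −0.18 and 0.14.

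Psme3, an activator of nuclear proteasomes, gave 79.4 and 77.1 in db/+ and 96.3, 100.9 and 104 in db/db (log2 change 0.30, SE 0.15, adjusted p = 0.66). Its second probe set above the filter had 0.0025. Ufd1, a partner of the unfolding ATPase Vcp, gave 115 and 102 in db/+ and 141, 151 and 129 in db/db (0.33, SE 0.16, adjusted p = 0.65), with −0.14 at its other probe set. Fbxo32, the muscle ubiquitin ligase known as atrogin, gave 105 and 117 in db/+ and 140, 140 and 141 in db/db (0.30, SE 0.15, adjusted p = 0.67), with 0.33 at its second probe set. In each of these the db/db arrays lay above the db/+ arrays at the first probe set.

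Usp14, a deubiquitinase bound to the base, had 3 probe sets above the filter, of opposite signs. One gave 196 and 183 in db/+ and 88.1, 152 and 176 in db/db (−0.46, SE 0.25, adjusted p = 0.71), and one of the type that can read related transcripts gave 208 and 207 against 382, 272 and 210 (0.40, SE 0.23, adjusted p = 0.73). Replicate 1 of db/db was farthest from db/+ at both, and without it the values were −0.20 and 0.19. The last probe set had 0.082. The chaperone genes Pomp and Psmg1, which help the core assemble, had log2 changes of 0.075 and 0.25, and Psmg2 had −0.25 and 0.18.

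**Figure D4:**
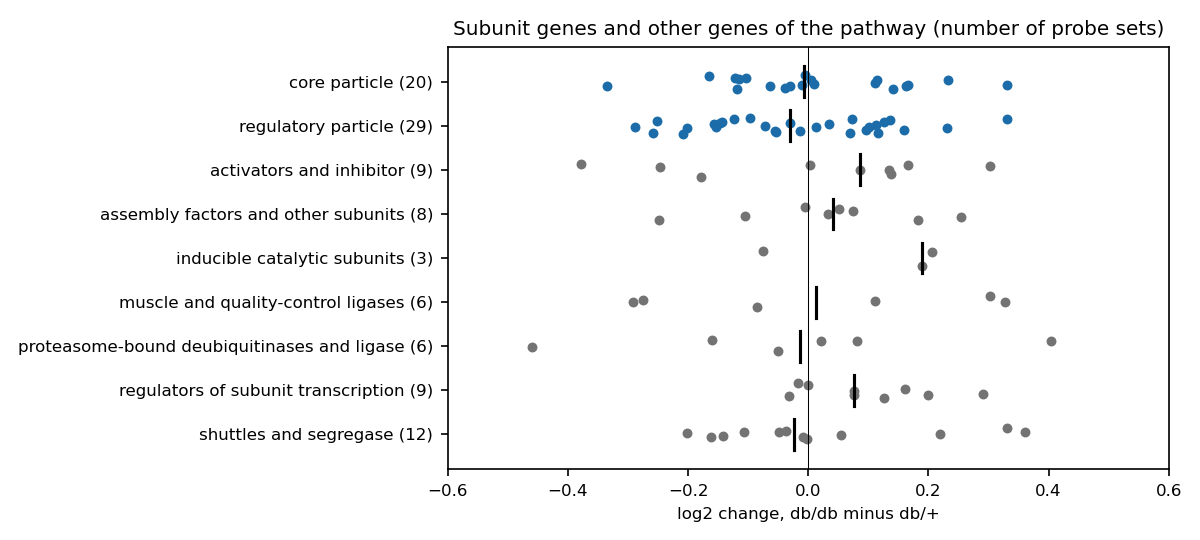
Log2 change between genotypes (db/db minus db/+, x axis) of each probe set above the filter, for the 2 particles (blue) and the other lists of the pathway (grey), with the number of probe sets in parentheses and the median as a black bar. Members lie between −0.34 and 0.33 and the other genes between −0.46 and 0.40.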

How the data were processed

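The authors deposited 1 intensity per probe set and array, on a linear scale, made with MAS5, per the submitters' processing notes, on Affymetrix arrays hybridised with cRNA from 10 µg of RNA. MAS5 scales each array to a common mean, and the trimmed means were equal here (150.05 on each array), so no further normalization was applied. The number of arrays, not a read depth, limits precision. Of 22690 probe sets, 64 controls were left out. The platform annotation gave 1 symbol for 20380 of the other 22626, several for 691 and none for 1555.

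Values were taken as log2(signal + 16), which understates changes of dim probe sets. Probe sets whose mean log2 value over the 5 arrays exceeded the 40th percentile (13575) entered a two-sided test of genotype without covariates (lmFit and eBayes of limma 3.58.1, under R 4.3.3). P-values were adjusted over all of them by Benjamini and Hochberg's method. The test was tried on simulated data in which the added changes were 2-fold or more. Every member's change was smaller, and changes of that size were not simulated. Values in every array are given, for each particle, for the 5 probe sets with the smallest p in each direction, for members called, and for genes with an unadjusted p under 0.05 and a probe set of opposite sign, and also for the 6 probe sets of other pathway genes with the smallest p. Further members, and the bounds of 1.5-fold and 2-fold, were chosen after their values were seen. The members and lists were chosen with earlier results of these data known. Alternatives were pseudocounts, filters, normalizations, priors, array weights, a replicate block, arrays left out, a threshold of 0.1 and selections of probe sets.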

Additional observations from a re-analysis of the deposited data

How the results depend on the processing

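No core, regulatory or other pathway probe set was called under any of the 17 alternatives. The count over all probe sets, 11 lower and 0 higher, was 2 lower with a pseudocount of 1, 34 lower and 3 higher with 64, 1 lower without a filter, 20 and 2 with a filter at the 60th percentile, 34 and 5 with eBayes trend and robust, 41 and 7 with array weights, 41 and 7 at a threshold of 0.1, and 23 and 3 with 1 probe set per gene. With the replicate number as a block it was 18 and 2. No db/+ array shares the number of db/db replicate 1, so the log2 changes of the block fit equal those without that array. The labels give the replicates only a number. Deviations of arrays of the same number from their group means correlated at 0.11 and −0.0048. The deviations of the 2 db/+ arrays mirror each other, so these values cannot show whether arrays of the same number were processed together. With 1 array left out it was 0 to 24 lower and 0 to 4 higher. It was 0 without db/+ replicate 2 and 1 without db/+ replicate 3, fits in which the lone db/+ array is assumed to vary like db/db, and 24 without db/db replicate 1. The median log2 change of the regulatory particle, −0.030, was −0.022 without a filter, −0.019 with quantile normalization, −0.011 with array weights, −0.062 with the replicate block, −0.064 with 1 probe set per gene and −0.053 without probe sets of the _x_at and _s_at types. With arrays left out it ran from −0.064 to −0.0093. That of the core particle ran from −0.048 to 0.050 over all settings. That of the other pathway genes was 0.033 and 0.00099 without a filter, and ran from 0.0027 to 0.086 with arrays left out (0.086 without db/db replicate 2, 0.080 without db/+ replicate 3). For each particle, the 5 probe sets with the smallest p in each direction were followed over the settings. Among these, signs turned only for Psma2 (0.044 without db/+ replicate 3, 0.036 without db/db replicate 2, in a range from −0.28 to 0.044). Signs of the other members, many of them with changes near 0, were not followed. Causes of these shifts were not tested. Members just above the filter have signals where the pseudocount weighs most.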
